A study of Mus musculus with 6 samples.

Results

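The genes described here encode the factors that start and extend protein chains on the ribosome in mouse CD4+CD8+ double-positive (DP) thymocytes. Members were taken by symbol, as every gene named Eif or Eef followed by a digit, with the eIF2 kinases (Eif2ak1 to Eif2ak4) and the Y-linked Eif2s3y set aside. Of 59 such symbols, 56 had at least 1 FPKM in at least 3 of the 6 libraries, and 10326 of the 23183 symbols in the files passed the same filter. FPKM, fragments per kilobase of transcript per 1e6 mapped fragments, is a level that is corrected for transcript length. Of the 3 symbols left out, Eef1a2 was listed at 0 in all libraries, Eif4e1b did not exceed 0.0315 FPKM, and Eif3j1 was between 0.0701 and 0.0716 FPKM in 5 libraries and at 12.8 FPKM in cKO 2. No member passed the filter through the libraries of 1 genotype alone.

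The study compared DP thymocytes sorted from the thymus of C57BL/6 mice at 6 weeks of age, with 3 WT libraries (Nsrp1 f/f) and 3 NSrp70-cKO libraries (Nsrp1 f/f CD4Cre), to ask how loss of NSrp70, a splicing factor of nuclear speckles, changes gene expression. Both genotypes carried the floxed Nsrp1 alleles, and the cKO mice also carried a Cre transgene under the Cd4 promoter, which becomes active around the DP stage. The labels do not say whether each library came from a separate mouse, so the p-values measure the spread between these libraries. Nsrp1, listed under its older symbol Ccdc55, was between 20.2 and 21.1 FPKM in WT and between 15.0 and 17.7 FPKM in cKO, so over the whole gene its level fell by less than a factor of 2 (log2 fold change −0.34 ± 0.08 SE, adjusted p = 0.0068, limma).

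The 3 WT libraries stood close together, differing by 1.45 to 1.56 times the counting noise, whereas the cKO libraries differed by 28.9 to 63.3 times. WT values are therefore given as a mean with a range, and the counts of calls are also given with the mean of the WT libraries taken as a single sample. All 8 DP markers were detected, and their summed level was 4486 to 4522 FPKM in WT and 5552 to 7126 FPKM in cKO. The 8 markers of proliferating cells were all called higher in cKO, with summed levels of 891 to 902 FPKM in WT and 1851 to 2154 FPKM in cKO. Of 5 markers of mature single-positive T cells, 4 were called lower and 1 higher. They summed to 112 to 115 FPKM in WT and 98.1 to 120 FPKM in cKO. Over all tested genes, 35.8% were called higher and 29.8% lower. Erythroid markers summed to between 1.96 and 2.72 FPKM in WT and to 26.0, 12.3 and 26.6 FPKM in cKO 1, 2 and 3, with Hbb-b1 and Hba-a1 called higher. Myeloid and thymic epithelial markers each summed to at most 7.87 FPKM in every library, with Krt5 and Foxn1 at 0. The B cell marker Cd79b was called higher (not so under equal FPKM totals, at −0.03 on the log2 scale), and the 4 B cell markers summed to 22.6 to 24.0 FPKM in WT and 26.6 to 39.4 FPKM in cKO. The part of proliferation and of other cells in the results below was not tested, and in bulk RNA a change in the share of a cell type and a change in RNA per cell cannot be told apart.

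Translation of most mRNAs begins when eIF4F binds the 5′ cap and a small ribosomal subunit, carrying eIF3, eIF1, eIF1A, eIF5 and the initiator tRNA held by eIF2, scans to the start codon. After GTP hydrolysis eIF5B joins the large subunit, eIF2B recharges eIF2 with GTP, and eEF1 and eEF2 then deliver aminoacyl-tRNAs and move the ribosome along the message. Many mRNAs of this machinery begin with a terminal oligopyrimidine tract, a C followed by pyrimidines, through which mTOR signalling controls their translation, and DP thymocytes are small cells that rest between a burst of division and positive selection.

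The first bases of the transcript were examined because this tract is a known shared feature of translation genes. RefSeq start windows on GRCm38.p6 were found for 43 of the 56 members. A C followed by at least 4 C or T bases, on the gene's strand and with the C within 10 bases of the annotated start, was present in 16 of 57 member windows (28.1%), against 30.7% of all 32851 windows and 55.1% of 78 windows of ribosomal protein genes. Counted by gene, at least 1 window with the tract was found for 13 of 43 members, beside 9297 of 27025 genes over all windows. By call, these were 8 of 28 members called higher, 1 of 5 called lower and 4 of 10 not called. Windows of 30 bases are shown for Eif3f, the eIF3 subunit that fell, for Eif3k and Eif3l, which are eIF3 subunits that rose, and for Eef1a1 and Eif2s3x, the most abundant elongation and eIF2 members. They lie at chr7:108934400-108934429 on the plus strand, chr7:28981874-28981903 on the minus strand, chr15:79075208-79075237 on the plus strand, chr9:78481710-78481739 on the minus strand and chrX:94212637-94212666 on the minus strand, and capitals mark the matching run counted from the C nearest to the annotated start, so pyrimidines just before that C stay in lower case.
Eif3f: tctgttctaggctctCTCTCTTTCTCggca
Eif3k: aaaacaaccggcgctggtgctgaaagcgcc
Eif3l: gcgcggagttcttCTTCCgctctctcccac
Eef1a1: gctggctccgccctCTTCCCgagggtgggg
Eif2s3x: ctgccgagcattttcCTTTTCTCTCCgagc
The capitals cover 11 bases in both Eif3f and Eif2s3x, and Eif3k had no match. A match is a description of these letters and does not show that the transcript starts there.

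Across the 56 members, 36 were called higher and 6 lower in cKO, where a call is an adjusted p below 0.05 in limma on log2(FPKM + 1) with Benjamini-Hochberg adjustment over all 10326 genes. These are 64.3% and 10.7% of the members, beside 35.8% and 29.8% of all tested genes. The median log2 fold change was 0.54, against 0.04 for all genes. The 3 cKO values were all above the highest WT value in 39 members (69.6%, against 39.2% of all genes) and all below the lowest in 8 (14.3%, against 33.3%), and 9 members overlapped. The 5 members Eef1d, Eif1ax, Eef1a1, Eif3k and Eif3i rose at least 2-fold, and none fell that far, where 3.88% of all genes were called with at least a 2-fold rise. The summed level of the 56 members was 9914 to 9973 FPKM in WT and 18861, 13157 and 18550 FPKM in cKO 1, 2 and 3.

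**Figure D1:**
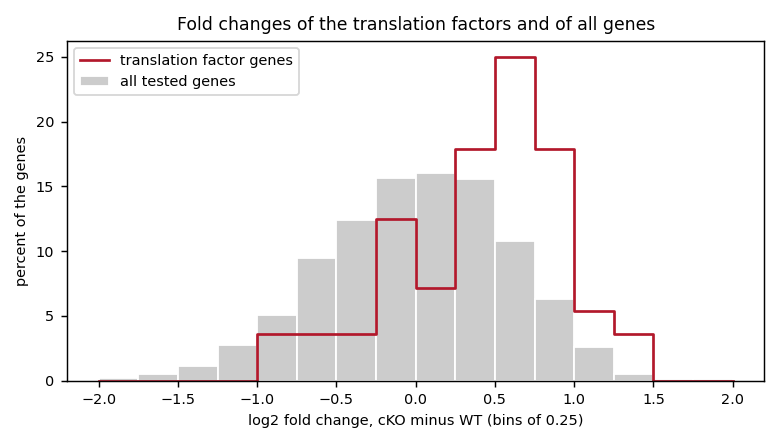
Log2 fold changes (cKO minus WT, x axis, bins of 0.25) of the 56 translation factor genes (red line) and of all 10326 tested genes (grey bars), each as a percent of its own group (y axis). The members are shifted to the right of all genes under the median-of-ratios scaling shown here, with medians of 0.54 and 0.04, and under equal FPKM totals both medians are lower by about the same amount (0.00 and −0.45).

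The number of members called depended on the scaling of the libraries. The FPKM values of the cKO libraries summed to 701400 to 850500 and those of the WT libraries to 521300 to 531500, so scaling every library to the same total lowered all cKO values, and the median of all genes moved to −0.45. Under that scaling 16 members (28.6%) were called higher and 18 (32.1%) lower, beside 8.74% and 59.9% of all genes. The members' median was 0.45 above that of all genes, compared with 0.50 above in the main fit. Quantile normalization gave 24 (42.9%) higher and 9 (16.1%) lower, beside 33.7% and 29.4% of all genes. The members' median was then 0.18 above that of all genes. In all 3 scalings 15 members were called higher, and the 6 lower members were called lower each time. The share of all genes that kept a call in all 3 scalings was not computed, so these counts have no background beside them. The 15 were Eif2s1, Eif2s2, Eif2b3, Eif3a, Eif3c, Eif3e, Eif3h, Eif3i, Eif3k, Eif3l, Eif1ax, Eef1b2, Eef1d, Eef1e1 and Eif2a, and all of these except Eif3e were also called higher after correction for GC content and transcript length. With WT taken as a single sample, 7 members were called higher and 1 lower, beside 7.21% and 8.73% of all genes. The 7 were Eif2s1, Eif2s2, Eif2b1, Eif2b3, Eif4e, Eif1ax and Eef1e1, and the 1 was Eif4ebp2.

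**Figure D2:**
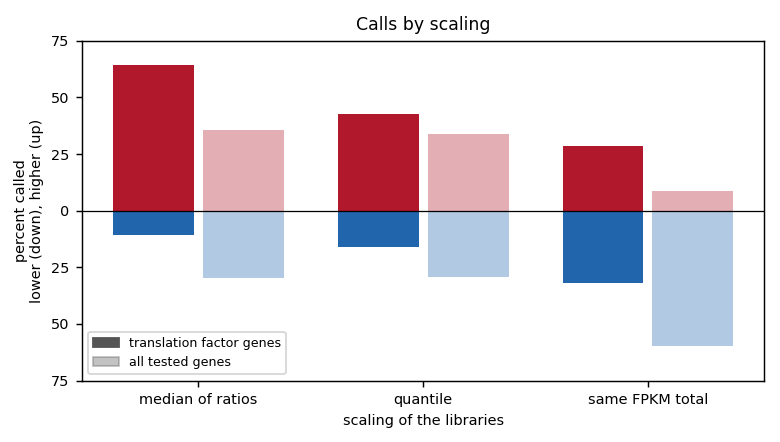
Percent of genes called higher (upward bars) and lower (downward bars) in cKO under 3 scalings of the libraries, for the 56 translation factor genes (full colour) and all tested genes (pale colour). The share of members called higher exceeds that of all genes in each scaling, at 64.3%, 42.9% and 28.6%, and the share called lower is below that of all genes in each.

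The 3 cKO libraries moved the members by different amounts. The median log2 difference from the WT mean was 0.68 in cKO 1, 0.25 in cKO 2 and 0.70 in cKO 3, against 0.03, 0.06 and 0.05 for all genes. Library cKO 2 had the smallest value of the 3 in 41 of the 56 members (73.2%, against 41.3% of all genes), among them all 13 subunits of eIF3. Its erythroid RNA was also the lowest of the cKO libraries, at 12.3 FPKM, as were its summed proliferation markers, at 1851 FPKM, and their part in this difference was not tested. Without cKO 2, 42 members (75%) were called higher, 9 (16.1%) lower and 12 at least 2-fold higher, beside 40.1%, 34.4% and 5.86% of all genes. In fits that left out each of the 6 libraries in turn, 24 of the 36 higher members and 5 of the 6 lower members kept their call every time. How often all genes kept their call in these fits was not computed.

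**Figure D3:**
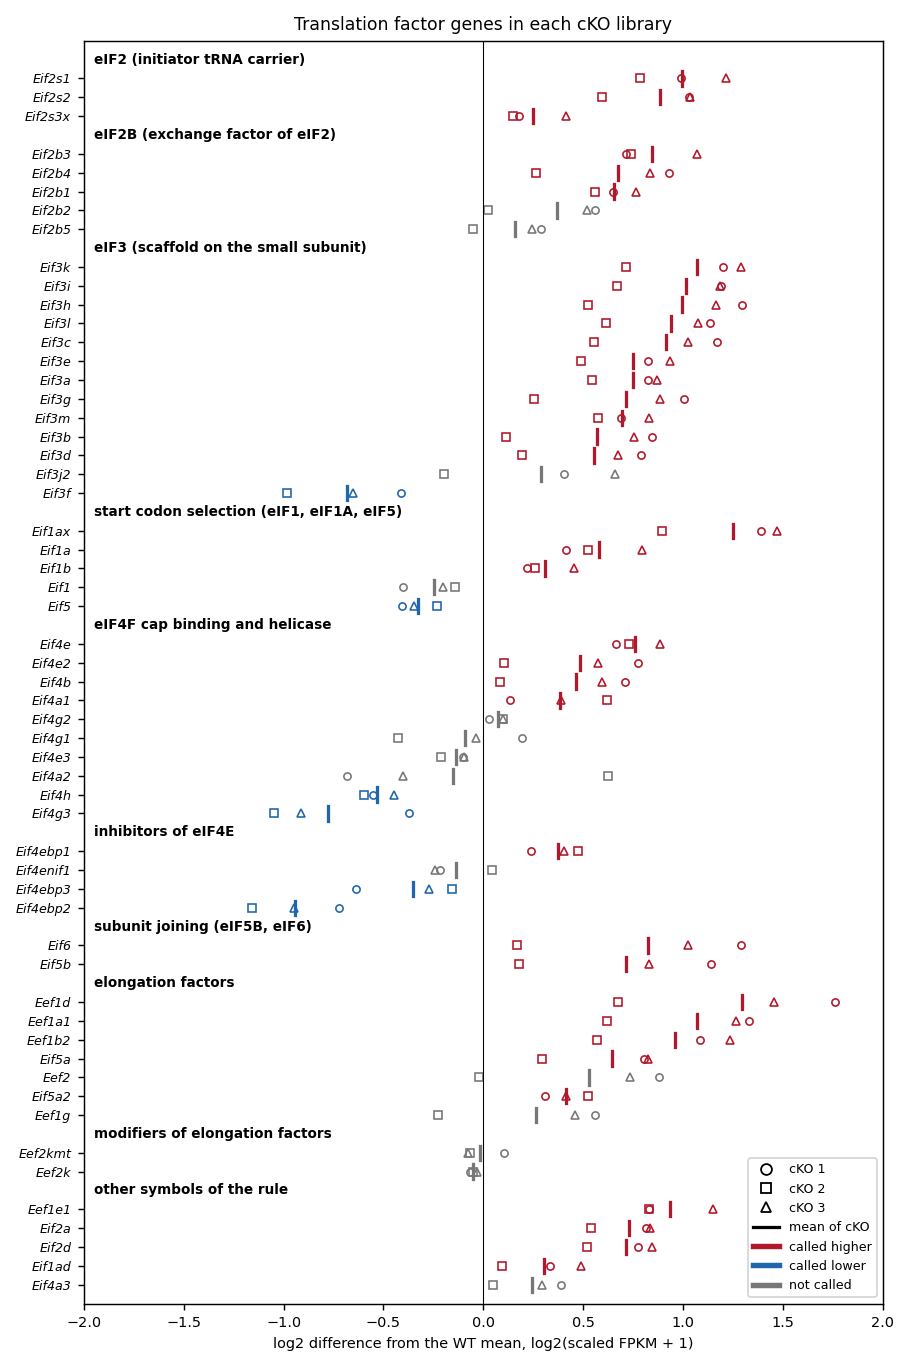
Log2 difference of each cKO library from the WT mean (x axis) for the 56 translation factor genes (rows), grouped by role. Circles, squares and triangles are cKO 1, 2 and 3, vertical marks their mean, and colours the call. Library cKO 2 has the smallest value in all 13 eIF3 subunits, and Eif3f, Eif4g3, Eif4h, Eif4ebp2, Eif4ebp3 and Eif5 lie below 0 in every library.

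Close copies and neighbours limit how exactly some levels are known. At least 1 annotated pseudogene copy of 90% identity or more was found for 26 of the 56 members, and coding genes on the opposite strand overlap Eef1b2 (Ndufs1), Eif2a (Serp1), Eif2b4 (Snx17), Eif2d (Rassf5), Eif2s2 (the gene a), Eif3m (Ccdc73), Eif5b (Rev1) and Eif4enif1 (Drg1, at a mean of 91.4 FPKM), besides those of Eif4a2, Eif1ad and Eef2kmt named with these genes.

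The 3 subunits of eIF2, which carries the initiator tRNA, were all called higher, as were 35.8% of all tested genes. Eif2s1, the alpha subunit and the target of the eIF2 kinases, was at 29.4, 29.7 and 30.3 FPKM in WT and 59.8, 52.4 and 70.5 FPKM in cKO. The groups did not overlap, and the log2 fold change was 1.00 ± 0.11 (SE, adjusted p = 0.00038, limma). Eif2s2, the beta subunit, rose by a log2 fold change of 0.89 ± 0.13 (adjusted p = 0.00098). Eif2s3x, the gamma subunit that binds GTP, lies on chromosome X and was at 88.7, 89.8 and 87.8 FPKM in WT and 99.96, 99.3 and 118.6 FPKM in cKO. Its call was weaker, with a log2 fold change of 0.25 ± 0.09 (adjusted p = 0.039), turned to −0.09 under quantile normalization and to −0.31 under equal totals, where it was called lower, and was lost when any WT library was left out (adjusted p up to 0.12).

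The Y-linked copy of the gamma subunit, Eif2s3y, was at 0 in all WT libraries and at 33.5, 43.8 and 31.3 FPKM in cKO. Xist, the X-inactivation RNA, was between 69.8 and 72.0 FPKM in WT and between 4.07 and 5.44 FPKM in cKO, so the expression of sex-linked genes differed with genotype in every library and the effects of sex and genotype cannot be told apart. The sum of both gamma subunit genes was 87.8 to 89.8 FPKM in WT and 133, 143 and 150 FPKM in cKO. Eif2s3x alone therefore gives only part of the gamma subunit RNA of the cKO libraries.

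Of the 5 subunits of eIF2B, which exchanges GDP for GTP on eIF2, Eif2b1, Eif2b3 and Eif2b4 were called higher and none lower. The shares of all genes were 35.8% higher and 29.8% lower. Eif2b1, the alpha subunit, was at 22.2, 22.4 and 23.2 FPKM in WT and 35.8, 34.0 and 39.0 FPKM in cKO, for a log2 difference of 0.66 ± 0.07 (adjusted p = 0.00038, limma). Eif2b2, the beta subunit and the most abundant of the 5, was at 44.9, 45.9 and 46.5 FPKM in WT and 67.5, 46.8 and 65.9 FPKM in cKO. Only cKO 2 lay close to the WT range, and the log2 fold change of 0.37 ± 0.14 did not pass (adjusted p = 0.054), although it did without cKO 2 (0.54, adjusted p = 8.1e-05). The catalytic subunit Eif2b5 overlapped between genotypes and was not called (0.16 ± 0.10, adjusted p = 0.19), and it turned to −0.38 under equal totals. Under equal totals the counts for eIF2B were 1 higher and 1 lower, beside 8.74% and 59.9% of all genes.

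In eIF3, the scaffold that holds the small subunit complex together, 11 of 13 subunits were called higher, 1 lower and 1 not called. Of all genes, 35.8% were called higher and 29.8% lower. The median log2 fold change of the subunits was 0.75. Under quantile normalization and equal totals 8 and 7 subunits were called higher and 1 was lower in each. Beside these, 33.7% and 8.74% of all genes were called higher, and 29.4% and 59.9% lower. Eif3h, the most abundant subunit, was at 343, 336 and 330 FPKM in WT and 823, 488 and 754 FPKM in cKO, for a log2 difference of 1.00 ± 0.20 (adjusted p = 0.0037, limma). Eif3k was at 228, 232 and 235 FPKM in WT and 532, 383 and 568 FPKM in cKO, and Eif3i at 110, 113 and 108 FPKM in WT and 252, 178 and 252 FPKM in cKO. Both groups were clear of each other in each gene, and the log2 fold changes were 1.07 ± 0.15 and 1.01 ± 0.15 (adjusted p = 0.0010 and 0.00098). The core subunits Eif3a, which is the largest, and Eif3c rose by 0.75 ± 0.10 and 0.92 ± 0.15, and Eif3d and Eif3b had the smallest called rises, at 0.55 ± 0.15 and 0.57 ± 0.18. Eif3b kept its call in only 1 of the 6 fits that left out a library, the one without cKO 2, and Eif3d was at −0.0042 under equal totals. Eif3e, Eif3g, Eif3l and Eif3m rose by 0.70 to 0.94, but Eif3g and Eif3m were not called under equal totals (0.16 and 0.14). Eif3g was also not called under quantile normalization (0.30) or without cKO 3 (adjusted p = 0.057, limma), and Eif3e and Eif3m were not called after the GC and length correction (0.12 and 0.08).

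Eif3f, which pairs with Eif3h in the part of the complex built from MPN-domain subunits, went the other way. It was at 228, 228 and 226 FPKM in WT and 170, 115 and 144 FPKM in cKO, so every cKO library lay below every WT library. The log2 fold change was −0.68 ± 0.14 (adjusted p = 0.0044, limma), and the subunit was also called lower under both other scalings, after the GC and length correction and in every fit without 1 library. Against the median of the other 12 subunits in the same library, Eif3f stood at 2.17 to 2.18 in WT and at 0.758, 0.81 and 0.701 in cKO 1, 2 and 3. A factor applied to a whole library leaves this ratio unchanged, whereas quantile normalization can change it. In these FPKM values Eif3f stood above the median of the other subunits in WT and below it in cKO. The oligopyrimidine run at its start is printed above.

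Eif3j2, which encodes the loosely bound j subunit, was not called (0.29 ± 0.20, adjusted p = 0.24) and fell to −0.26 under equal totals. Its transcript is 99.4% identical over 2379 bases to that of Eif3j1, so their reads cannot be told apart with certainty. In cKO 2, where Eif3j1 was at 12.8 FPKM, Eif3j2 was at 30.6 FPKM, below the WT range of 33.4 to 36.5 FPKM. The sum of both was 33.4 to 36.6 FPKM in WT and 46.4, 43.4 and 55.6 FPKM in cKO, and the 3 sums were above WT in each cKO library.

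**Figure D4:**
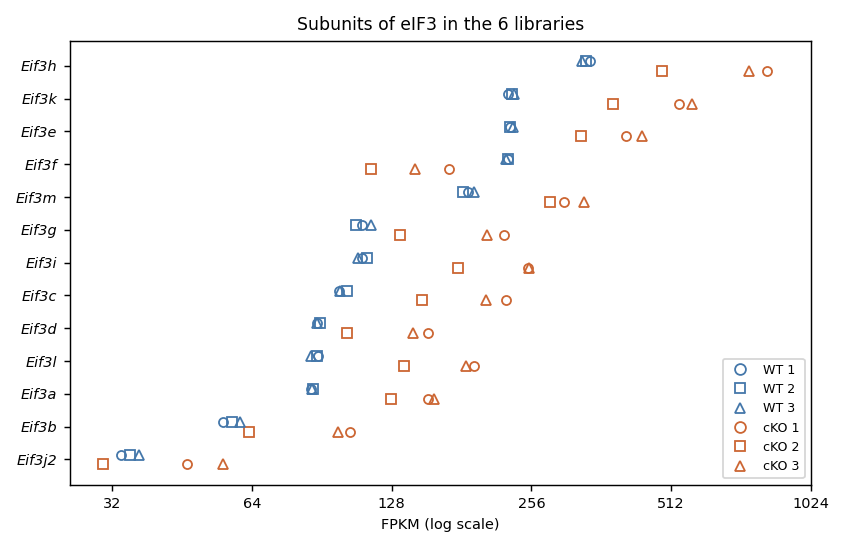
FPKM (x axis, log scale) of the 13 eIF3 subunits (rows, ordered by WT mean) in the 3 WT libraries (blue) and the 3 cKO libraries (orange). Eif3f is the only subunit whose cKO values, 115 to 170 FPKM, all lie to the left of its WT values.

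The factors that select the start codon split by gene. Eif1ax, which encodes the form of eIF1A from chromosome X, was at 122, 128 and 125 FPKM in WT and 327, 235 and 347 FPKM in cKO, for a log2 difference of 1.25 ± 0.15 (adjusted p = 0.00052, limma). It was called higher in every scaling and also when WT counted as a single sample. Its autosomal relative Eif1a rose by 0.58 ± 0.10 (adjusted p = 0.0024), and 10 further coding genes share at least 90% identity with it over 428 to 434 bases, so this value is uncertain. It was not called under equal totals (0.05) or after the GC and length correction (0.25). Eif1b rose by 0.31 ± 0.08 in the main fit but was at −0.05 under quantile normalization and after the GC correction and at −0.25 under equal totals.

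Eif1 and Eif5 had lower values in cKO. Eif1, which holds the scanning complex open and is the most abundant of these genes, was at 572, 573 and 584 FPKM in WT and 434, 527 and 501 FPKM in cKO. No values overlapped, but the log2 fold change of −0.25 ± 0.10 missed the threshold (adjusted p = 0.061), while it passed without cKO 2 (−0.30, adjusted p = 0.0087). Eif1 was also called lower under both other scalings. Under equal totals 59.9% of all genes were called lower. Quantile normalization lowered other abundant members too, such as Eef1a1 (from 1.07 to −0.01) and Eef2 (from 0.53 to −0.22). Those calls therefore cannot separate a fall of Eif1 from the effect of scaling. The reads of Eif1 could be shared with 20 annotated pseudogene copies of at least 90% identity over at least 200 bases. They could also be shared with the coding gene Emd (96.7% identity over 662 bases). Eif5, the GTPase-activating partner of eIF2, was at 86.3, 84.9 and 87.5 FPKM in WT and 64.6, 73.9 and 67.6 FPKM in cKO. Its fall of −0.33 ± 0.07 (adjusted p = 0.0051) was called in all 3 scalings.

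The 10 cap-binding and helicase genes of the eIF4F group had a median log2 fold change of −0.01, with 4 called higher and 2 lower. Of all genes, 35.8% were called higher and 29.8% lower. Under equal totals 0 of the 10 were called higher and 5 lower, beside 8.74% and 59.9% of all genes. Eif4e, the cap-binding protein itself, was at 31.9, 32.6 and 34.4 FPKM in WT and 52.6, 55.7 and 61.6 FPKM in cKO. The log2 fold change was 0.76 ± 0.08 (adjusted p = 0.00030, limma), the smallest adjusted p of all members, although the rise did not pass under equal totals (0.21). Eif4a1, the main RNA helicase and the most abundant gene of the group, was at 388, 386 and 382 FPKM in WT and 421, 598 and 505 FPKM in cKO. Its call (0.38 ± 0.13, adjusted p = 0.036) was lost when any WT library or cKO 3 was left out, and the value turned to −0.22 under quantile normalization and −0.18 under equal totals.

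Eif4a2, the second eIF4A helicase, differed among the cKO libraries more than between genotypes. It was at 152, 153 and 156 FPKM in WT and 95.0, 239 and 116 FPKM in cKO, so cKO 2 was the highest and cKO 1 the lowest of all 6 libraries. The log2 fold change of −0.15 ± 0.31 was not called (adjusted p = 0.68), was called lower without cKO 2 (−0.54, adjusted p = 0.0016) and was 0.12 without cKO 1. The ratio of Eif4a2 to Eif4a1 was 0.391 to 0.409 in WT and 0.226, 0.4 and 0.23 in cKO. Rfc4, a coding gene at a mean of 53.7 FPKM, overlaps Eif4a2 on the opposite strand.

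Among the helicase cofactors, Eif4h was called lower. It was at 139, 140 and 138 FPKM in WT and 94.1, 92.4 and 102 FPKM in cKO, a tight fall of −0.53 ± 0.07 (adjusted p = 0.00068, limma) that was called in every scaling. Eif4b, which stimulates the same helicase, rose by 0.46 ± 0.16 (adjusted p = 0.035), was at −0.10 under equal totals, and kept its call only in the fit without cKO 2.

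The eIF4G scaffolds bridge the cap-binding protein and eIF3. Eif4g3 was at 36.1, 37.1 and 36.4 FPKM in WT and 27.9, 17.3 and 18.9 FPKM in cKO, for a log2 difference of −0.78 ± 0.17 (adjusted p = 0.0051, limma). Eif4g1, the main form, was not called (−0.09 ± 0.15, adjusted p = 0.61), with 65.5 to 67.1 FPKM in WT and 75.6, 49.5 and 64.5 FPKM in cKO, and its direction turned to 0.30 after the GC and length correction. Eif4g2, which lacks the site for eIF4E, was not called either (0.07 ± 0.07, adjusted p = 0.36) and was at −0.40 under quantile normalization and −0.48 under equal totals. Of the other cap-binding genes, Eif4e2 rose by 0.48 ± 0.16 but was at −0.06 under equal totals, and Eif4e3 was not called (−0.14 ± 0.06, adjusted p = 0.091).

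Inhibitors of eIF4E compete with the eIF4G scaffolds for the cap-binding protein. Eif4ebp2, the most abundant inhibitor, was at 58.0, 60.0 and 58.0 FPKM in WT and 35.0, 26.0 and 29.9 FPKM in cKO. Every cKO value was far below the lowest WT value. Its log2 fold change of −0.94 ± 0.11 (adjusted p = 0.00047, limma) was the largest fall of the 56 members in the main fit, and it was called in every scaling and with WT taken as a single sample. Eif4ebp3 fell from 21.5, 18.8 and 20.0 FPKM in WT to 12.5, 18.04 and 16.4 FPKM in cKO (−0.35 ± 0.13, adjusted p = 0.045). That call held in only 1 of the 6 fits without a library, the fit without cKO 2, and 504 of its bases are shared with an overlapping gene model on the same strand. Eif4ebp1, the inhibitor with the lowest level, rose by 0.37 ± 0.10 (adjusted p = 0.014) and was at −0.10 under equal totals. Eif4enif1, which carries eIF4E into the nucleus, overlapped between genotypes and was not called (−0.14 ± 0.09, adjusted p = 0.21).

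The balance between the cap-binding protein and these inhibitors was higher in every cKO library than in every WT library. Eif4e divided by the sum of Eif4ebp1, Eif4ebp2 and Eif4ebp3 was 0.381 to 0.414 in WT and 0.985, 1.09 and 1.16 in cKO 1, 2 and 3. The summed level of the 3 inhibitors was 83.0 to 84.1 FPKM in WT and 51.2 to 53.3 FPKM in cKO. These are RNA levels, and the activity of the inhibitors is set by their phosphorylation, which was not measured.

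**Figure D5:**
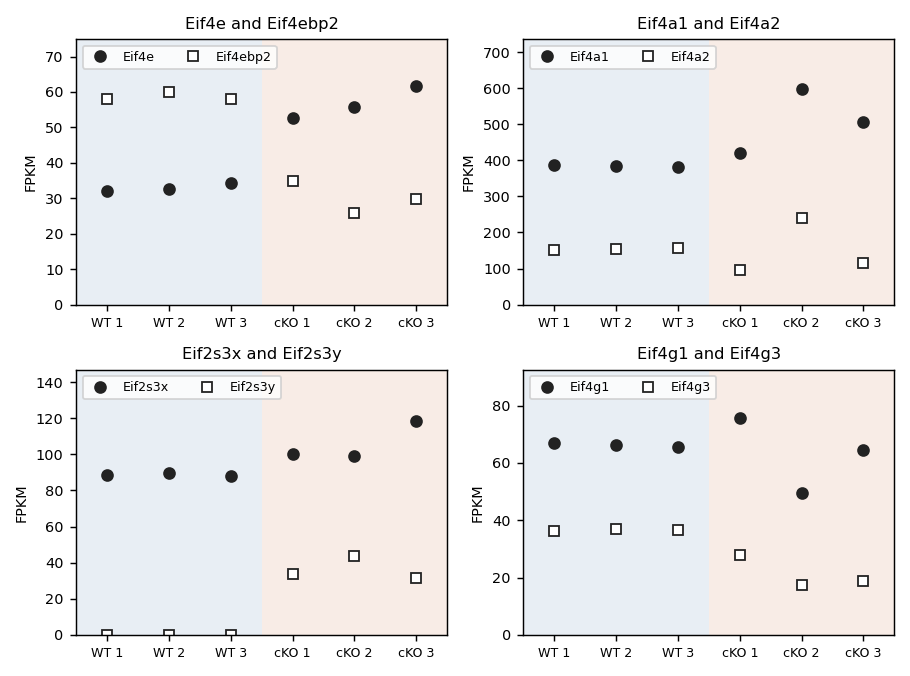
FPKM (y axis, from 0) of 4 pairs of related genes in the 3 WT (blue background) and 3 cKO libraries (orange background). Eif4e passes Eif4ebp2 in every cKO library, Eif4a2 is high only in cKO 2, at 239 FPKM, Eif2s3y is at 0 in WT, and Eif4g3 is lower in every cKO library while Eif4g1 overlaps between genotypes.

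Both genes of the joining step were called higher, as were 35.8% of all genes. Eif6, which keeps the large subunit apart until it is released, was at 56.3, 53.9 and 55.0 FPKM in WT and 135, 62.4 and 113 FPKM in cKO, for a log2 difference of 0.83 ± 0.26 (adjusted p = 0.027, limma). Eif5b, the GTPase that joins the subunits, rose by 0.72 ± 0.22 (adjusted p = 0.024). In both genes cKO 2 lay close to WT, and each kept its call in only 1 of the 6 fits that left out a library, the one without cKO 2. Neither was called under equal totals.

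Of the 7 elongation genes, 5 were called higher and none lower, beside 35.8% and 29.8% of all genes. Their median log2 fold change was 0.64. Under quantile normalization and under equal totals 3 were called higher in each, beside 33.7% and 8.74% of all genes. Eef1a1, which delivers aminoacyl-tRNAs and was the most abundant member, was at 3506, 3548 and 3547 FPKM in WT and 8829, 5474 and 8494 FPKM in cKO. The rise of 1.07 ± 0.23 (adjusted p = 0.0052, limma) was also called under equal totals but was −0.01 under quantile normalization. It made up 0.660% to 0.681% of the FPKM total of the WT libraries and 1.12%, 0.780% and 0.999% of those of cKO 1, 2 and 3. The gene has 18 annotated pseudogene copies, so its exact level is uncertain.

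Eef1d, a subunit of the complex that recharges eEF1A with GTP, had the largest rise of all members. It was at 74.0, 71.4 and 74.6 FPKM in WT and 249, 119 and 203 FPKM in cKO, with a log2 fold change of 1.30 ± 0.25 (adjusted p = 0.0035, limma) that was called in every scaling. Eef1b2, the other exchange subunit, rose by 0.96 ± 0.17 (adjusted p = 0.0022), whereas Eef1g, the structural subunit of the same complex, was not called (0.26 ± 0.20, adjusted p = 0.27) and was at −0.21 under quantile normalization and −0.30 under equal totals. The 3 subunits of this complex therefore did not give the same call. Eef2, the translocase, was at 858 to 859 FPKM in WT and 1572, 853 and 1426 FPKM in cKO. It missed the threshold (0.53 ± 0.23, adjusted p = 0.078), passed without cKO 2 (0.81, adjusted p = 8.0e-05), and was at −0.22 under quantile normalization and −0.03 under equal totals. Eif5a, which helps the ribosome through stretches such as consecutive prolines, rose by 0.64 ± 0.15 (adjusted p = 0.0079), and its scarce relative Eif5a2 rose by 0.41 ± 0.10 from 2.30 FPKM in WT. Neither was called under equal totals (0.08 and 0.0048), and Eif5a was not called under quantile normalization (0.05).

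The 2 genes that modify eEF2 did not change detectably. Eef2k, the kinase that inactivates eEF2, was at 6.78, 6.51 and 6.37 FPKM in WT and 6.18, 6.34 and 6.39 FPKM in cKO, and the groups overlapped (−0.05 ± 0.06, adjusted p = 0.52, limma). Eef2kmt, which methylates eEF2, was not called (−0.01 ± 0.10, adjusted p = 0.90), and 474 of its bases are shared with the neighbouring gene Alg1. Both were slightly above 0 under quantile normalization, at 0.04 and 0.17. Both were called lower under equal totals, as were 59.9% of all genes.

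The last 5 symbols follow the naming rule but have other roles. Eef1e1, a scaffold of the multi-tRNA synthetase complex, was at 20.68, 21.004 and 20.95 FPKM in WT and 37.7, 38.2 and 47.5 FPKM in cKO, for a log2 difference of 0.94 ± 0.10 (adjusted p = 0.00033, limma) that was called in every scaling and with WT taken as a single sample. Eif2a and Eif2d, which are linked to initiation without the usual eIF2 complex, rose by 0.73 ± 0.09 and 0.71 ± 0.10 (adjusted p = 0.00060 and 0.00080), and Eif2d was not called under equal totals (0.18). Eif4a3, a core protein of the exon junction complex that splicing deposits on mRNA, was at 107, 111 and 110 FPKM in WT and 143, 114 and 135 FPKM in cKO. Its values did not overlap, but the difference of 0.24 ± 0.10 did not pass (adjusted p = 0.059) and was at −0.31 under equal totals. The coding genes Gm5580 and Gm8994 share 96.4% and 95.6% identity with Eif4a3 over 1361 and 1450 bases, so its level is uncertain. Eif1ad rose by 0.30 ± 0.10, was called lower under equal totals at −0.24, and shares 428 bases with the overlapping gene Banf1.

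Neighbouring steps of translation were read from lists of other genes. All 5 detected genes of termination and recycling were called higher, with Gspt2 at 0, beside 35.8% of all genes. Under equal totals none was called higher, beside 8.74% of all genes. Mcts1 was not called under quantile normalization and was called lower after the GC and length correction (−0.64), where Denr was not called. Abce1, the ATPase that splits the ribosome, rose from 40.1, 41.3 and 41.0 FPKM to 69.1, 57.4 and 64.6 FPKM (0.63 ± 0.08, adjusted p = 0.00077, limma), and Etf1, the release factor that reads stop codons, rose by 0.44 ± 0.09 (adjusted p = 0.0036). Both enzymes that make hypusine on eIF5A, Dhps and Dohh, were called higher, by 0.31 ± 0.09 and 0.65 ± 0.18, and under equal totals Dhps was called lower. Of the 9 mitochondrial translation factors 5 were called higher and none lower, beside 35.8% and 29.8% of all genes. Under equal totals 2 were called in each direction, beside 8.74% of all genes higher and 59.9% lower. The mitochondrial release and recycling factors Mtrf1 and Mrrf, which had the smallest adjusted p of that list, rose by 0.82 ± 0.10 and 0.89 ± 0.14 (adjusted p = 0.00053 and 0.0014).

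Of 10 tested genes that restrain or tune initiation, 5 were called lower and 2 higher, beside 29.8% and 35.8% of all genes. Under equal totals 8 were called lower and 0 higher, beside 59.9% and 8.74% of all genes. Eif2ak3 (PERK), the eIF2 kinase of the endoplasmic reticulum, was at 36.2, 37.1 and 36.5 FPKM in WT and 17.3, 20.2 and 17.7 FPKM in cKO (−0.96 ± 0.07, adjusted p = 0.00014, limma). Rps6kb2, an S6 kinase downstream of mTOR, was at 23.2, 23.5 and 24.1 FPKM in WT and 8.76, 10.7 and 6.96 FPKM in cKO (−1.35 ± 0.13, adjusted p = 0.00026). Both were called lower in every scaling. The other 3 lower genes were Mknk1, Mknk2 and Pdcd4, and Eif2ak1 and Eif2ak2 were called higher, although neither was under equal totals. Mknk2 and Eif2ak2 were not called after the GC and length correction (−0.10 and 0.31). Of 5 genes for poly(A) binding, Pabpc4 fell by 0.49 on the log2 scale (SE 0.06, adjusted p = 0.00047) and Paip2 rose by 0.46 ± 0.09 (adjusted p = 0.0033), which was −0.02 under quantile normalization and −0.10 under equal totals.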

How the data were processed

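RNA of sorted DP thymocytes was measured in 6 libraries. Per the study's methods and the labels, the authors made poly(A)-enriched directional libraries, removed ribosomal RNA and sequenced paired-end reads, which passed through fastx trimmer and were aligned by TopHat to mm10. The authors deposited the resulting Cufflinks FPKM values, with 1 value for each gene symbol in each library. The TopHat and Cufflinks versions, annotation and strand setting are not given in the sources used here, so overlapping genes and close copies may share reads. The study gives an approximate overall read number and none for each library, and the size of the smallest FPKM steps gave estimates of 20.65 to 20.8 (in units of 1e6 fragments) in WT and 13.1, 20.55 and 17.35 in cKO 1, 2 and 3.

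FPKM values were divided by median-of-ratios size factors (1.002 to 1.015), genes under FPKM 1 in more than 3 libraries were dropped, and log2(value + 1) was tested with limma 3.58.1 (R 4.3.3, trended prior variance) with genotype as the only term, Benjamini-Hochberg adjustment over 10326 genes and a threshold of 0.05. A fold change on this scale understates the change of low genes. On simulated data of these 10326 genes, the test recovered 85 of 100 genes set to change 2-fold and 100 of 100 set to change 4-fold. It called 6 unchanged genes. Only 100 genes were changed at each size there, whereas 35.8% of genes were called higher and 29.8% lower in the data. The simulated counts therefore do not give error rates for the real comparison.

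Members, role groups and lists were chosen with earlier results of these data known. Values of some single marker genes are not reported here. Values per library are given for the most abundant member of each role group and the 5 smallest adjusted p-values in each direction. They are also given for members called at 2-fold or more, all members called lower, Eif4a2, Eif4g3 and the X-linked Eif2s3x and Eif1ax. Of the 2 smallest adjusted p-values of each other list, Abce1, Eif2ak3 and Rps6kb2 have values per library and the rest fold changes. Genes, copies and overlaps were taken from GENCODE M21 (GRCm38, the build of mm10), in which all 59 symbols were found, and start windows from RefSeq. Alternatives were other pseudocounts, filters and scalings, a fit of GC content and length removed from each library (natural splines, 5 degrees of freedom), WT counted as 1 sample, a replicate block, no variance trend and each library left out.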

Additional observations from a re-analysis of the deposited data

How the results depend on the processing

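The members' median, the number called and the 2-fold count depended on scaling and on the libraries used. Under equal FPKM totals 16 members were called higher and 18 lower, with a median of 0.00028 (all genes −0.45), and the 4 past 2-fold were lower. Quantile normalization gave a median of 0.21 and 2 past 2-fold, both lower. With WT libraries counted as 1 sample the counts were 7 and 1, with 1 past 2-fold, and the GC and length correction left 2. Leaving out 1 library gave 27 to 42 higher, 5 to 9 lower and 2 to 12 past 2-fold (12 without cKO 2, 2 without cKO 3). Pseudocounts of 0.1 and 5 kept every call. No low-value filter gave 28 higher and 5 lower, a filter at FPKM 5 gave 35 and 6 of 54 tested, and no variance trend 36 and 7. The cause of these differences was not tested.

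Log2 fold changes that changed sign under quantile normalization were Eef1a1 −0.0091, Eef1g −0.21, Eef2 −0.22, Eef2k 0.040, Eef2kmt 0.17, Eif1b −0.054, Eif2s3x −0.091, Eif4a1 −0.22, Eif4a3 −0.13 and Eif4g2 −0.40. Under equal totals they were Eef1g −0.30, Eef2 −0.031, Eif1ad −0.24, Eif1b −0.25, Eif2b2 −0.18, Eif2b5 −0.38, Eif2s3x −0.31, Eif3d −0.0042, Eif3j2 −0.26, Eif4a1 −0.18, Eif4a3 −0.31, Eif4b −0.096, Eif4e2 −0.065, Eif4ebp1 −0.10 and Eif4g2 −0.48. After the GC and length correction they were Eef2k 0.17, Eef2kmt 0.064, Eif1b −0.045, Eif3j2 −0.12 and Eif4g1 0.30. With 1 library left out, Eef2kmt ranged from −0.068 to 0.049 (above 0 without WT 1, cKO 2 or cKO 3), Eif4a2 from −0.54 to 0.12 (above 0 without cKO 1) and Eif4g1 from −0.23 to 0.081 (above 0 without cKO 2).

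WT and cKO libraries with the same number shared only that number (correlations of their deviations −0.022, 0.038 and 0.031), and with a replicate block 35 members were called higher and 5 lower, with a median of 0.54 and 5 past 2-fold.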
